A study of Mus musculus with 12 samples.

Results

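The unfolded protein response and the integrated stress response were followed through 37 genes in macrophages from the mouse peritoneum, phagocytes of the body cavity around the gut. The genes were chosen by name, as the sensors, transcription factors, phosphatase subunits, metabolic targets and endoplasmic reticulum (ER) folding and degradation factors of these pathways, and all 37 were found among the 48709 genes of the deposited table. RNA was sequenced from wild-type cells (WT) and from cells with a myeloid knockout (MKO) of Usp5, a deubiquitinase that disassembles free ubiquitin chains. Titles gave 0 h or 3 h of lipopolysaccharide (LPS), the endotoxin of gram-negative bacteria that activates Toll-like receptor 4. The 12 libraries thus formed 4 groups of 3, here called WT and MKO with their hour of LPS. The 0 h cells also carried LPS in their treatment label, and the design text names mock cells. The promoter that drives the deletion, the strain, age and LPS dose, and the number of mice behind each group were not given in the labels.

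Cells that accumulate unfolded proteins in the ER sense them through the membrane proteins PERK (Eif2ak3), IRE1 (Ern1) and ATF6. IRE1 splices Xbp1 mRNA, ATF6 is cleaved into a transcription factor, and both programs raise chaperones and degradation factors. PERK, GCN2 (Eif2ak4) and related kinases phosphorylate the translation factor eIF2, which slows most translation, favours translation of Atf4 and so raises genes of amino acid supply. The phosphatase subunit Ppp1r15a then restores translation. In macrophages these pathways are known to interact with Toll-like receptor signalling. Gene counts report the amount of mRNA and show neither Xbp1 splicing, nor eIF2 phosphorylation, nor the translation of Atf4.

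Levels are CPM, counts relative to library size and scaled with TMM factors, as mean ± SD with n = 3, and differences are log2 fold changes with their standard error (SE) from edgeR's quasi-likelihood test. Genes with a p under 0.05 after Benjamini-Hochberg adjustment over the 12455 genes tested, all 37 among them, are said to be called. Usp5 was at 111 ± 10.4 CPM in WT 0 h, 108 ± 2.86 in WT 3 h, 29.7 ± 1.503 in MKO 0 h and 27.6 ± 0.621 in MKO 3 h, so that MKO kept 26.7% and 25.5% of the WT mRNA. Each library held 14762709 to 20778862 counts. In both 0 h groups replicate 3 lay apart from the other two, in opposite directions. By chi-square per degree of freedom, replicates 1 and 2 of every group were closer to each other than to replicate 3, at 1.92 to 2.62 against 2.97 to 26.3. The correlation (r) of log2 CPM gave the same pair at 0 h only. Among WT 3 h libraries r was highest for replicates 2 and 3, at 0.9898, with 0.9892 between 1 and 2. The MKO 3 h libraries likewise gave 0.9906 between 2 and 3 and 0.9899 between 1 and 2. Whether replicates 1 and 2 share a source is not stated. Values without both 0 h libraries that stand apart, with replicates 1 and 2 summed, and with library size alone as scaling are named where they end or add a call. Leaving out both 0 h libraries keeps replicates 1 and 2 of each 0 h group, so the calls it adds may rest on a technical spread. It also leaves WT 0 h libraries low in Malat1 and Xist RNA and MKO 0 h libraries high, with values given at the end. In that setting the 0 h genotype difference and the LPS response of WT cannot be told apart from this contrast between libraries. Separate mice or cultures are not stated for the replicates, so the p-values cover the spread between these samples alone, and that spread may be technical. The summed level of 7 macrophage markers was 8112 to 8698 CPM in WT 0 h and 9476 to 9784 in WT 3 h. In MKO it was 5838 to 6257 at 0 h and 6488 to 6733 at 3 h. Most of the WT rise came from Cd14, at 283 to 314 CPM at 0 h and 1309 to 1419 at 3 h. In MKO Cd14 was at 359 to 420 and 758 to 816, above WT at 0 h, where the rest of the list lay below WT. Csf1r was at 1403 to 1428 CPM in MKO 0 h and 1466 to 1549 in WT 0 h. Gata6, Timd4, Vsig4, Prg4 and Cxcl13, markers of large peritoneal macrophages, stayed under 1 CPM in every library. Of 6 plasma cell markers Mzb1, Tnfrsf17 and Derl3 stayed under 1 CPM in every library, while the list summed to 70.8 to 83.2 CPM in WT and 124 to 156 in MKO, mostly from Sdc1. The B cell markers Ms4a1 and Pax5 stayed under 1 CPM in every library, while Ighm was at 8.52 to 10.3 CPM in WT and 14.5 to 25.3 in MKO. Of 6 mesothelial or fibroblast markers all but Dcn stayed under 1 CPM, and the list summed to 3.17 to 5.01 CPM in WT and 1.42 to 1.99 in MKO. In bulk RNA fewer cells of a type and less RNA per cell cannot be told apart, and the part of these markers in the results was not tested.

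Promoters of 9 of the genes are shown because they carry the short sequences through which these pathways are known to act and because their genes differ in the results that follow. Sequences are from RefSeq, build GRCm38.p6, and read 5′ to 3′ on the strand of the gene. Capitals mark matches to any of 5 motifs searched on both strands, namely the ER stress element (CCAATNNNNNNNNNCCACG), its second form (ATTGGNCCACG), the core of the unfolded protein response element (TGACGTG), the core bound by C/EBP and ATF4 dimers (TGATGNAA) and the cAMP response element (TGACGTCA). The stretches of Asns, Chac1, Nupr1 and Herpud1 hold the C/EBP and ATF4 core.
Asns, chr6:7693210-7693309, minus strand: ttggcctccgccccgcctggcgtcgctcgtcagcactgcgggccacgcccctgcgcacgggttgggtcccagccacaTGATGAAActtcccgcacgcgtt
Chac1, chr2:119351029-119351128, plus strand: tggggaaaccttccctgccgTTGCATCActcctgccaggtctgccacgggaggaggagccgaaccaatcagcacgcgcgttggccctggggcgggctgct
Nupr1, chr7:126625501-126625600, minus strand: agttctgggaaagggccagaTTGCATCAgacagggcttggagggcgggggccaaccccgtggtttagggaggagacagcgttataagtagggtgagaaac
Herpud1, chr8:94386297-94386407, plus strand, with the second form of the ER stress element as well: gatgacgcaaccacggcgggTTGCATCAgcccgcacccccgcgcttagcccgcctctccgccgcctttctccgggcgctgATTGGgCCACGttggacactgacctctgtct
The stretches of Hspa5, Calr, Canx and Syvn1 hold the ER stress element, and that of Hspa5 also the unfolded protein response core.
Hspa5, chr2:34771913-34772063, plus strand: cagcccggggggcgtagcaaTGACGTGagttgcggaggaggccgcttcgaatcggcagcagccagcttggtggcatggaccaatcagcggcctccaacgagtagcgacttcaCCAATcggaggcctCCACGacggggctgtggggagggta
Calr, chr8:84847014-84847113, minus strand: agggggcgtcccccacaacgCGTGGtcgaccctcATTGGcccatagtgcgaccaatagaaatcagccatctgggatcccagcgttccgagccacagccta
Canx, chr11:50325739-50325838, minus strand: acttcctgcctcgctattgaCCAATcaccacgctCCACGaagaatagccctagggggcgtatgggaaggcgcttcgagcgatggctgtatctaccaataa
Syvn1, chr19:6046476-6046575, plus strand: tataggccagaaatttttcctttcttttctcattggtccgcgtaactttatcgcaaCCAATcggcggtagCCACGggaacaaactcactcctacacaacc
The stretch upstream of Ppp1r15a holds a cAMP response element.
Ppp1r15a, chr7:45526269-45526368, minus strand: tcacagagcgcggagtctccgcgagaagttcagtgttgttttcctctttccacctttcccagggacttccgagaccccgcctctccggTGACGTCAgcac

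Promoters of 250 bases before to 50 after the start were present for 32 of the 37 genes (35 promoters). The ER stress element was found in 8 of these genes, Calr, Canx, Creld2, Dnajc3, Hsp90b1, Hspa5, Pdia6 and Syvn1, and in 0.119% of all 32851 promoters. Its second form was found in Herpud1 alone among them and in 0.0365% of all promoters. The C/EBP and ATF4 core was found in 5, Asns, Chac1, Herpud1, Nupr1 and Trib3, against 3.97% of all promoters. The unfolded protein response core was found in Hspa5 (2.01% of all promoters) and the cAMP response element in Ppp1r15a (1.79%). A match is a description of the sequence and not a measured site.

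The chaperones made up the most abundant transcripts per length. On the deposited TPM scale, Calr, a lectin chaperone that also binds calcium, had a mean of 2047 over the 12 libraries, followed by Hspa5 at 888, Hsp90b1 at 849 and Canx at 376. Calr thus lay far above the next gene in every library, while Hspa5 and Hsp90b1 overlapped in WT 0 h, where they had 867 ± 3.74 and 859 ± 23.5 TPM. Atf4 came next at 334 TPM. Chac1 was lowest in MKO, at 1.84 ± 0.466 TPM in MKO 0 h. Ppp1r15a had the widest span, from 19.7 ± 0.978 TPM in WT 0 h to 453 ± 34.6 TPM in WT 3 h.

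**Figure D1:**
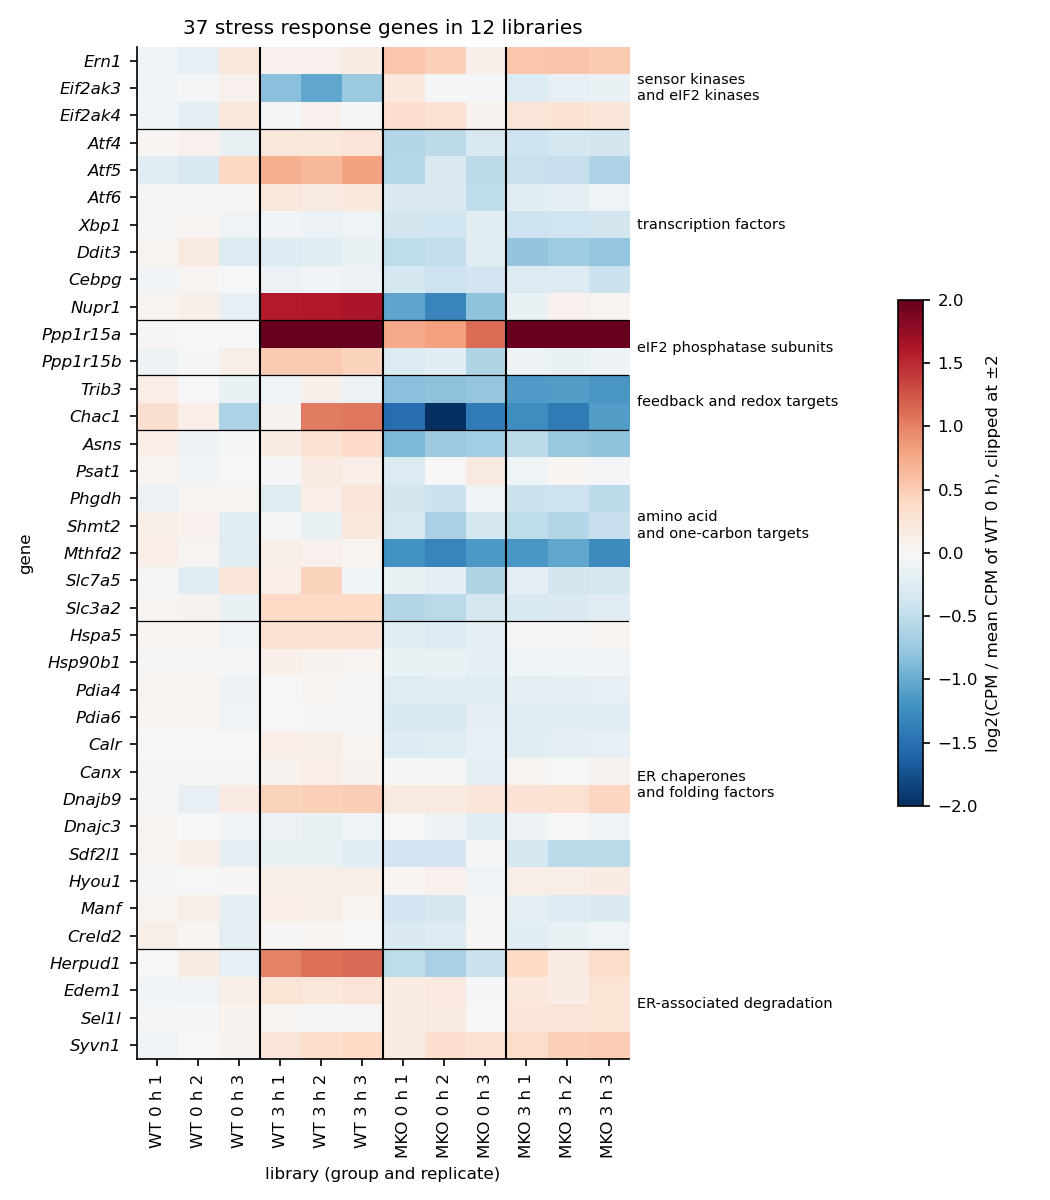
Level of the 37 genes (rows, grouped by role) in each of the 12 libraries (columns), as the log2 of CPM over the mean of WT 0 h, with colours clipped at ±2. Most rows of transcription factors and of amino acid genes are blue in the 6 MKO libraries, and the rows of Ern1 and Syvn1 are red there. Nupr1 is darkest in WT 3 h, while Ppp1r15a is at the clipped colour in both 3 h groups.

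Most of the 37 genes were lower in MKO. At 0 h 3 genes were called higher and 20 lower in MKO, with a median of -0.26 log2 units, against 16.5% of all tested genes called higher, 16.4% called lower and a median of -0.00. At 3 h 3 were called higher and 25 lower, with a median of -0.31, against 19.8% and 23% of all genes and a median of -0.01. Called in either direction were 23 and 28 of the 37, against 32.9% and 42.8% of all genes, and the values of the groups did not overlap for 21 and 32, against 39.4% and 61.2%. These comparisons share no library. The same 20 genes were called lower at both times, against 12.6% of all genes, Ern1 was called higher at both, against 10.7%, and Ppp1r15a was called in opposite directions, against 0.996%. Scaled by library size alone, which moves all log2 differences by 0.12 at 0 h and 0.25 at 3 h towards MKO, the counts were 7 higher and 16 lower at 0 h and 10 higher and 13 lower at 3 h. Of all genes, that scaling called 3219 higher and 1195 lower at 0 h, and 5424 higher and 1199 lower at 3 h. Without both 0 h libraries that stand apart the counts were 7 higher and 23 lower at 0 h and 4 higher and 26 lower at 3 h. That setting leaves replicates 1 and 2, the closer pair, in each 0 h group. Under every alternative setting that tested them, 10 genes remained called lower at 0 h and 13 at 3 h. Atf4, Nupr1, Trib3, Chac1, Asns, Mthfd2, Slc3a2 and Herpud1 were among them at both times, though Chac1 was not tested with a mean of at least 5 CPM. With replicates 1 and 2 of each group summed, which leaves 2 samples a group, 11 of the calls at 0 h were lost (Atf5, Calr, Ddit3, Ern1, Hsp90b1, Hspa5, Pdia4, Pdia6, Shmt2, Syvn1 and Xbp1) and 9 of those at 3 h (Cebpg, Ern1, Hsp90b1, Manf, Pdia4, Pdia6, Sdf2l1, Sel1l and Slc7a5).

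LPS moved fewer of the genes. In WT 14 were called higher and 1 lower at 3 h, with a median of 0.10 log2 units, against 17.8% and 14.6% of all tested genes and a median of -0.00. In MKO 5 were called higher and 1 lower, with a median of 0.07, against 9.75% and 6.08% of all genes and a median of -0.01. Called in either direction were 15 and 6, against 32.5% and 15.8% of all genes, and the groups did not overlap for 19 and 17, against 45.6% and 34.3%. No gene fell in both genotypes or moved in opposite directions, against 4.75% and 0.0401% of all genes. The 5 that rose in both genotypes were Atf6, Nupr1, Ppp1r15a, Hspa5 and Herpud1, against 8.6% of all genes. The WT count depended on scaling, since library size alone, which lowers all WT differences by 0.22, called 7 higher and 13 lower, and 4 higher and 4 lower in MKO. Without both libraries that stand apart the counts were 16 higher and 5 lower in WT and 9 higher and 2 lower in MKO. The interaction, the LPS response of MKO minus that of WT, was called for 4 genes, 3 of them below 0, against 6.8% of all genes, with 2.39% above and 4.41% below 0. Scaled by library size alone, 1 was called above and 1 below 0, and without both libraries that stand apart 2 above and 6 below. With replicates 1 and 2 summed the calls lost were those of Asns, Atf4, Atf6 and Edem1 for LPS in WT, of Atf6, Ddit3 and Hspa5 in MKO, and of Atf5, Eif2ak3 and Nupr1 for the interaction. With library size alone 12 genes not called otherwise were called lower with LPS in WT, at -0.43 to -0.12 (Calr, Canx, Cebpg, Ddit3, Dnajc3, Hsp90b1, Pdia4, Pdia6, Sdf2l1, Sel1l, Trib3 and Xbp1). Without both libraries that stand apart Ern1 and Hyou1 (0.22 and 0.12) were called higher with LPS in WT, and Calr too (0.09), while Xbp1, Ddit3, Dnajc3 and Sdf2l1 were called lower, at -0.33 to -0.13.

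**Figure D2:**
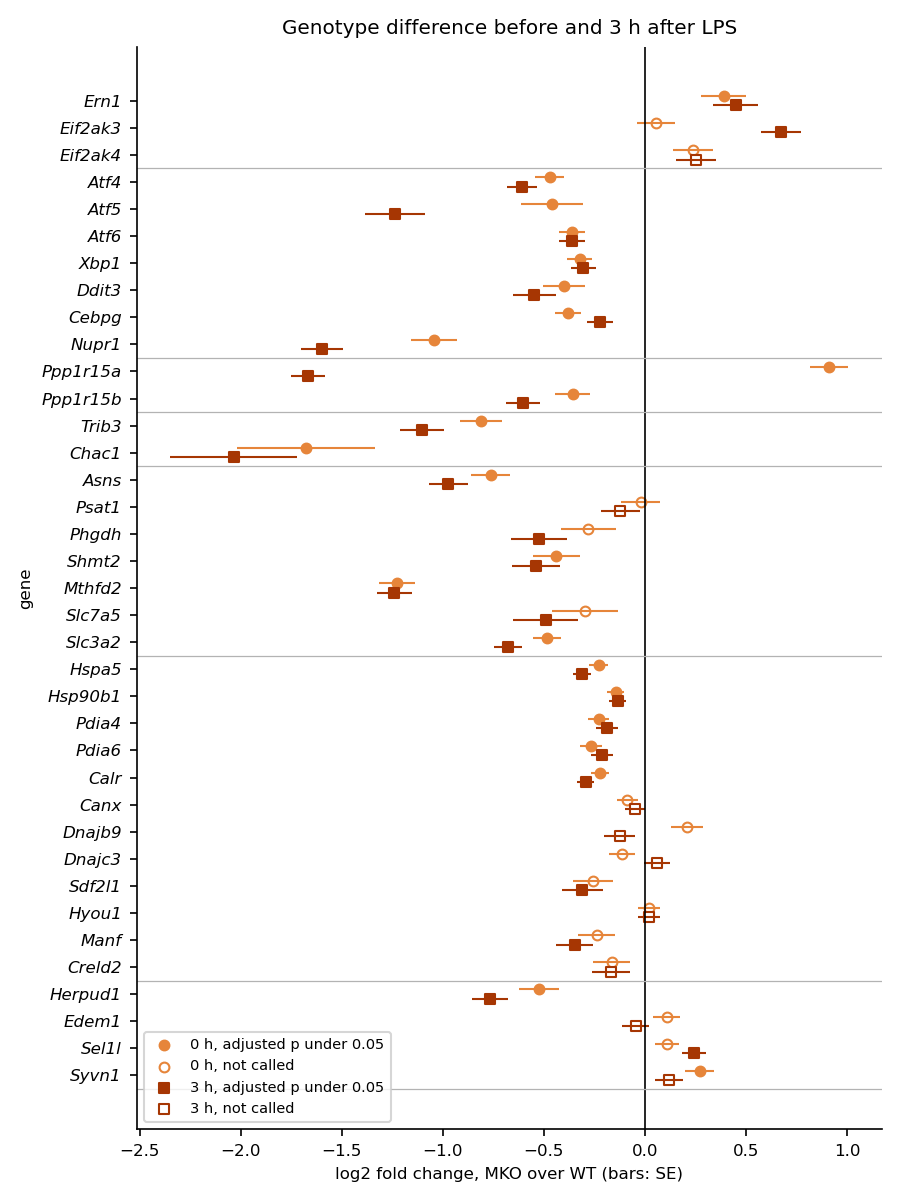
Log2 fold change of MKO over WT for each of the 37 genes at 0 h (circles) and 3 h (squares), with SE as bars and filled symbols for genes called at an adjusted p under 0.05. Most symbols lie left of 0, Chac1 lies furthest left at -1.68 and -2.03, and Ppp1r15a lies at 0.91 at 0 h and -1.67 at 3 h.

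Of the sensor kinases, Ern1 at both times and Eif2ak3 at 3 h stood against this direction, with higher mRNA in MKO. Ern1, the IRE1 kinase and endonuclease, was at 60.9, 57.3 and 74.7 CPM in WT 0 h, against 94.5, 89.3 and 68.8 in MKO 0 h, and at 67.9, 68.4 and 71.1 in WT 3 h, against 94.7, 95.7 and 92.6 in MKO 3 h. The groups overlapped at 0 h, through the library of each group that stands apart, and not at 3 h. It was called higher in MKO at 0 h by 0.39 (adjusted p = 0.015, SE 0.11) and at 3 h by 0.45 (adjusted p = 0.0047, SE 0.11). The 0 h call was lost without WT 0 h replicate 1 or 2 (0.35 and 0.31) and without MKO 0 h replicate 1 or 2 (0.30 and 0.34). Without both libraries that stand apart, the 0 h difference was 0.64. With replicates 1 and 2 summed both calls were lost, at 0.27 and 0.43 (adjusted p = 0.26 and 0.056).

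Eif2ak3, the PERK kinase, fell with LPS in WT. Its levels were 20.4, 20.5 and 22.5 CPM before LPS, then 11.8, 10.3 and 12.6 after 3 h in WT, while MKO libraries gave 24.4, 20.8 and 20.8 before LPS, then 17.4, 18.8 and 19.2 after 3 h. The WT 3 h libraries lay below all others. LPS changed it by -0.86 (adjusted p = 7.9e-06, SE 0.10) in WT, and the value in MKO was -0.25 (adjusted p = 0.091, SE 0.09). The interaction was 0.62 (adjusted p = 0.012, SE 0.14), a call lost with replicates 1 and 2 summed, at 0.65 (adjusted p = 0.083). The MKO response was called with library size alone (-0.34) and without both libraries that stand apart (-0.28). At 3 h it was called higher in MKO by 0.67 (adjusted p = 9.7e-05, SE 0.10), while at 0 h the value was 0.06 (adjusted p = 0.69, SE 0.09). Eif2ak4, the GCN2 kinase that senses uncharged tRNA, was not called in any comparison, with 0.24 at 0 h and 0.25 at 3 h (adjusted p = 0.084 and 0.054). It was called higher in MKO at both times (0.44 and 0.26) when both libraries that stand apart were left out, and with library size alone (0.35 and 0.50).

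All 7 transcription factors were called lower in MKO at both times, against 12.6% of all tested genes. Atf4, the central factor of the integrated stress response, was at 235, 242 and 207 CPM before LPS, then 266, 263 and 274 after 3 h in WT, while MKO libraries gave 152, 159 and 182 before LPS, then 172, 178 and 176 after 3 h. No MKO library reached any WT library. The difference was -0.47 (adjusted p = 0.00020, SE 0.07) at 0 h and -0.61 (adjusted p = 1.4e-05, SE 0.07) at 3 h. LPS raised Atf4 in WT by 0.23 (adjusted p = 0.025, SE 0.07), a call lost without WT 0 h replicate 3 (0.16) and without WT 3 h replicate 1, 2 or 3 (0.24, 0.24 and 0.21). That value was 0.01 and not called with library size alone. In MKO the value was 0.09 (adjusted p = 0.42, SE 0.07). LPS was called in both genotypes without both libraries that stand apart, at 0.16 in WT and 0.17 in MKO (adjusted p = 0.0016 and 0.0025).

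Atf5, a relative of Atf4 that also governs mitochondrial stress genes, rose with LPS in WT, and its response differed between the genotypes. It was at 21.01, 20.02 and 32.97 CPM in WT 0 h, against 40.6, 39.3 and 42.9 in WT 3 h, and at 16.6, 20.1 and 16.99 in MKO 0 h and 18.1, 17.95 and 16.1 in MKO 3 h. All WT 3 h libraries lay above all others, and the third WT 0 h library lay between them and its mates. The LPS difference was 0.73 (adjusted p = 0.0014, SE 0.15) in WT and -0.05 (adjusted p = 0.87, SE 0.16) in MKO, with an interaction of -0.78 (adjusted p = 0.043, SE 0.21). The interaction call was lost in 10 of the 12 fits that left out a library, at -0.83 to -0.65, and held without WT 0 h replicate 3 and without MKO 0 h replicate 3. The genotype difference was -1.24 (adjusted p = 1.6e-05, SE 0.15) at 3 h. At 0 h it was -0.46 (adjusted p = 0.032, SE 0.15), and this call was lost without WT 0 h replicate 3 (-0.19), MKO 0 h replicate 1 (-0.41), MKO 0 h replicate 3 (-0.40) or MKO 3 h replicate 2 (-0.45), and with library size alone (-0.35). Without both libraries that stand apart it was -0.15 and not called, and the interaction was -1.09. With library size alone the interaction was -0.64 and not called. Atf5 shares 82 exon bases with Nup62 and with Il4i1 on the opposite strand, and strand use in counting is not stated.

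Nupr1, a small chromatin protein induced by Atf4 and by inflammatory stress, rose in both genotypes and stayed lower in MKO. It was at 35.95, 37.2 and 31.1 CPM in WT 0 h, against 104, 105 and 108 in WT 3 h, and at 16.8, 13.9 and 19.98 in MKO 0 h and 31.8, 36.95 and 36.01 in MKO 3 h. After LPS the MKO libraries reached the range of untreated WT and no more. LPS raised it by 1.60 (adjusted p = 1.6e-08, SE 0.11) in WT and 1.05 (adjusted p = 8.5e-06, SE 0.11) in MKO. The genotype difference was -1.04 (adjusted p = 8.9e-06, SE 0.11) at 0 h and -1.60 (adjusted p = 4.0e-08, SE 0.11) at 3 h. The interaction of -0.55 (adjusted p = 0.043, SE 0.15) was lost in 10 of the 12 fits that left out a library, at -0.58 to -0.40, and held without WT 0 h replicate 2 and without MKO 0 h replicate 2. Scaled by library size alone it was -0.42 and not called, and without both libraries that stand apart it was -0.33 and called.

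The other 4 factors differed less. Ddit3, the CHOP factor linked to stress-induced death, was at 60.2 ± 9.51 CPM in WT 0 h, 52.2 ± 1.95 in WT 3 h, 45.6 ± 5.404 in MKO 0 h and 35.7 ± 0.983 in MKO 3 h. It was lower in MKO, at -0.40 (adjusted p = 0.0093, SE 0.10) at 0 h, a call lost without WT 0 h replicate 2 (-0.30) and at -0.62 without both libraries that stand apart, and at -0.55 (adjusted p = 0.00090, SE 0.11) at 3 h. It was the gene that fell with LPS in MKO, at -0.35 (adjusted p = 0.037, SE 0.11), a call lost in 7 of the 12 fits that left out a library (-0.38 to -0.26). Ddit3 shares 68 exon bases with Mars on the opposite strand. Atf6, the ER-anchored factor, was at 182 ± 4.56 CPM in WT 0 h, against 142 ± 11.9 in MKO 0 h, a difference of -0.36 (adjusted p = 0.00059, SE 0.06), and at -0.36 at 3 h (SE 0.06), which became -0.11 and not called with library size alone. Its LPS calls, 0.21 in WT and 0.21 in MKO, were lost in 4 and 9 of the 12 fits that left out a library (0.19 to 0.21 in WT and 0.13 to 0.23 in MKO), and with library size alone they were -0.02 and 0.12, neither called. Without MKO 0 h replicate 3 the MKO value was 0.13. Xbp1, whose mRNA is the substrate of IRE1, was lower, at -0.32 (adjusted p = 0.00093, SE 0.06) at 0 h and -0.31 (adjusted p = 0.0011, SE 0.06) at 3 h, and LPS did not pass the test in either genotype. With library size alone the 3 h genotype difference of Xbp1 was -0.05 (adjusted p = 0.41), and LPS in WT was called at -0.31. Cebpg, a dimer partner of Atf4, was lower, at -0.38 (adjusted p = 0.00036, SE 0.06) at 0 h. At 3 h its value was -0.22 (adjusted p = 0.012, SE 0.06), a call lost without WT 3 h replicate 2 (-0.20) or MKO 3 h replicate 3 (-0.17), and 0.03 when scaled by library size alone.

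Among the eIF2 phosphatase subunits, Ppp1r15a had the largest LPS response of the 37 genes in both genotypes. Ppp1r15a (GADD34), the inducible subunit that ends the translational block, was at 21.1, 20.7 and 20.7 CPM in WT 0 h, against 537, 525 and 601 in WT 3 h. In MKO it was at 35.2, 36.8 and 45.1 CPM at 0 h and 172, 165 and 186 at 3 h. MKO thus lay above WT before LPS and below it after, with no overlap at either time. LPS raised it 26.6-fold in WT, a log2 difference of 4.74 (adjusted p = 2.5e-14, SE 0.10), and 4.46-fold in MKO, 2.16 (adjusted p = 1.4e-10, SE 0.09). The interaction was -2.58 (adjusted p = 1.9e-08, SE 0.13) and was called under every alternative, from library size alone (-2.44) to replicates 1 and 2 of each group summed. The genotype difference was 0.91 (adjusted p = 6.1e-06, SE 0.09) at 0 h and -1.67 (adjusted p = 3.5e-09, SE 0.08) at 3 h.

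Ppp1r15b (CReP), the constitutive subunit, followed the rest of the module. It was at 181, 188 and 209 CPM before LPS, then 276, 277 and 263 after 3 h in WT, while MKO libraries gave 160.1, 165 and 127 before LPS, then 180.4, 176 and 181 after 3 h, so that each MKO group lay below WT of the same time. It rose with LPS in WT by 0.50 (adjusted p = 0.00036, SE 0.09), and the MKO value was 0.25 (adjusted p = 0.061, SE 0.09). The MKO value was 0.14 and called without both libraries that stand apart. The difference between these responses was -0.25 (adjusted p = 0.31, SE 0.12), and -0.41 and called without both libraries that stand apart. MKO was lower, at -0.36 (adjusted p = 0.0051, SE 0.09) at 0 h, which became -0.23 without MKO 0 h replicate 3 and -0.18, still called, without both libraries that stand apart, and -0.24 and not called with library size alone, and at -0.60 (adjusted p = 6.1e-05, SE 0.09) at 3 h.

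**Figure D3:**
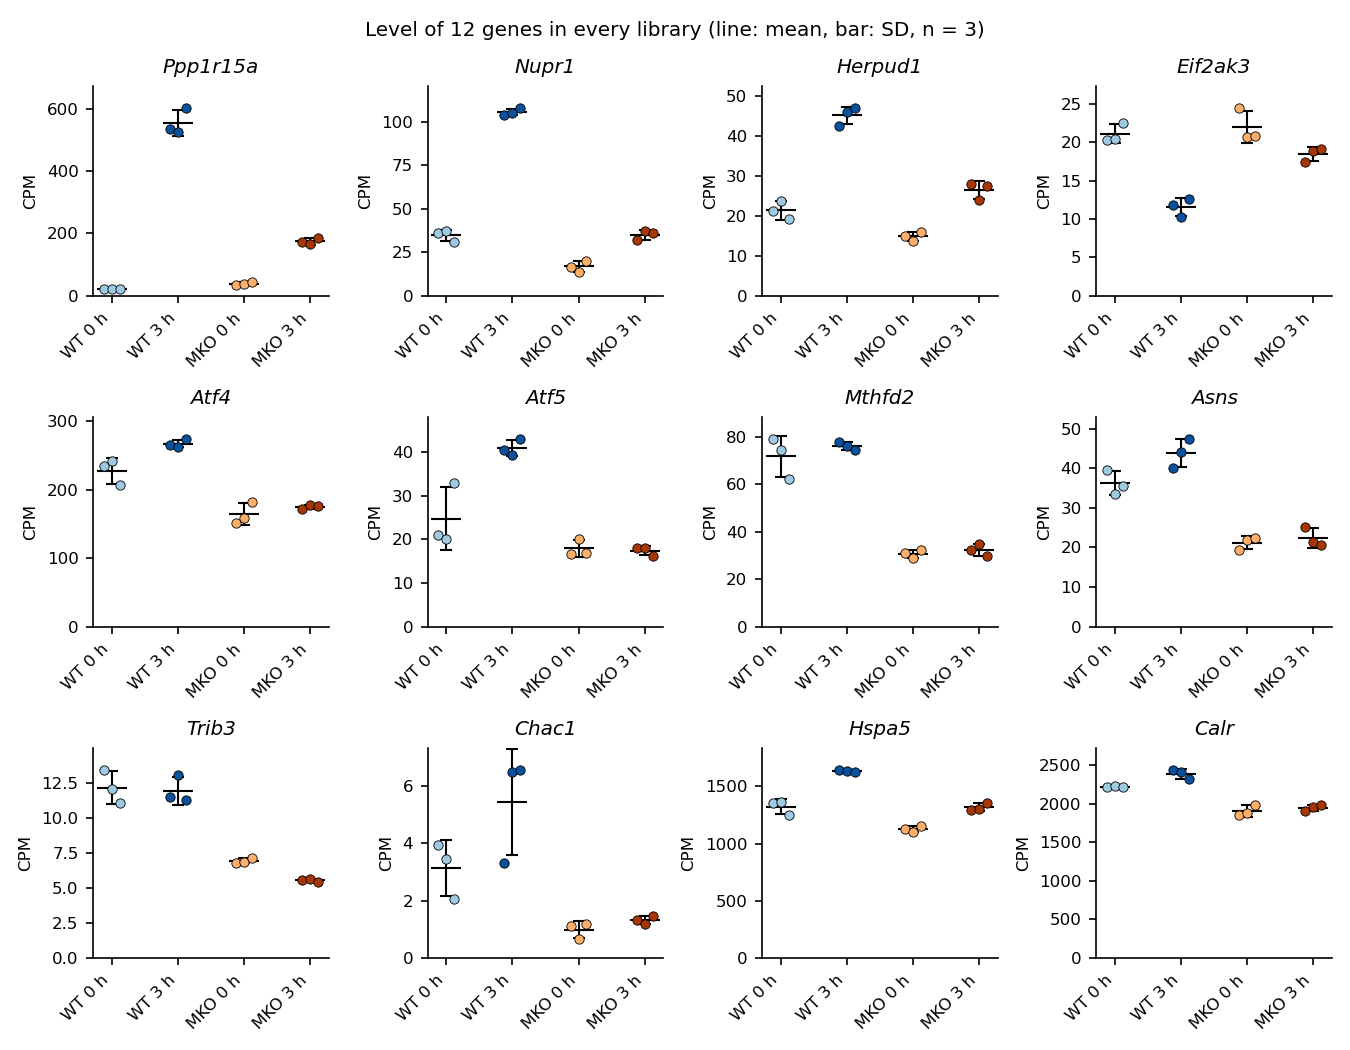
CPM of 12 of the genes in every library by group, with the mean as a line and the SD as a bar (n = 3), each axis starting at 0. Ppp1r15a spans 525 to 601 in WT 3 h, against 165 to 186 in MKO 3 h, Mthfd2 stays at or below 35.0 in the 6 MKO libraries, and Eif2ak3 is lowest in WT 3 h.

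The feedback and redox targets of the Atf4 and CHOP pair, Trib3 and Chac1, were called lower in MKO at both times, and Chac1 had the largest genotype difference of the 37 genes. Trib3, a pseudokinase that restrains Atf4 activity, was at 13.4, 12.04 and 11.1 CPM before LPS, then 11.5, 13.1 and 11.3 after 3 h in WT, while MKO libraries gave 6.78, 6.87 and 7.13 before LPS, then 5.57, 5.63 and 5.45 after 3 h. All 6 MKO libraries lay below all 6 WT libraries. The difference was -0.81 (adjusted p = 4.1e-05, SE 0.10) at 0 h and -1.10 (adjusted p = 1.9e-06, SE 0.11) at 3 h. LPS was not called in either genotype, except with library size alone (-0.25 in WT and -0.41 in MKO). Chac1, which degrades glutathione, was at low levels, with 3.94, 3.46 and 2.04 CPM before LPS, then 3.32, 6.504 and 6.56 after 3 h in WT, while MKO libraries gave 1.099, 0.663 and 1.196 before LPS, then 1.34, 1.18 and 1.46 after 3 h, where 1 count was worth 0.0469 to 0.0647 CPM. The MKO groups lay below the WT groups, at -1.68 (adjusted p = 0.0018, SE 0.34) at 0 h and -2.03 (adjusted p = 0.00013, SE 0.31) at 3 h. Its rise with LPS in WT, 0.80 (adjusted p = 0.044, SE 0.28), was lost in 8 of the 12 fits that left out a library (0.56 to 0.88), in DESeq2, with library size alone (0.58) and without both libraries that stand apart (0.56).

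Of 7 genes of amino acid supply and folate metabolism, 4 were called lower in MKO at 0 h and 6 at 3 h, and none higher. Of all tested genes 16.4% and 23% were called lower at these times, and 16.5% and 19.8% higher. Mthfd2, the mitochondrial folate enzyme that Atf4 is known to drive, was at 78.8, 74.3 and 62.1 CPM before LPS, then 77.8, 76.1 and 74.5 after 3 h in WT, while MKO libraries gave 30.8, 28.9 and 32.2 before LPS, then 32.1, 34.97 and 29.8 after 3 h. MKO held 42.7% of the WT level at 0 h and 42.3% at 3 h. The difference was -1.23 (adjusted p = 2.2e-07, SE 0.09) at 0 h and -1.24 (adjusted p = 9.2e-08, SE 0.09) at 3 h, and LPS was not called in either genotype. Asns, asparagine synthetase, was at 39.4, 33.5 and 35.5 CPM before LPS, then 40.05, 44.2 and 47.2 after 3 h in WT, while MKO libraries gave 19.4, 21.9 and 22.4 before LPS, then 25.1, 21.3 and 20.6 after 3 h. No MKO library reached a WT library, and the difference was -0.76 (adjusted p = 4.0e-05, SE 0.10) at 0 h and -0.97 (adjusted p = 2.4e-06, SE 0.10) at 3 h. Its LPS call in WT, 0.28 (adjusted p = 0.036, SE 0.09), was lost in 5 of the 12 fits that left out a library (0.22 to 0.28) and with library size alone (0.05).

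Slc3a2, the heavy chain that carries several amino acid transporters to the membrane, was at 359.6 ± 26.9 CPM in WT 0 h, 475 ± 1.86 in WT 3 h, 257 ± 23.6 in MKO 0 h and 297 ± 8.44 in MKO 3 h. It was lower, at -0.48 (adjusted p = 9.5e-05, SE 0.07) and -0.68 (adjusted p = 2.7e-06, SE 0.07) in MKO and rose with LPS in WT by 0.40 (adjusted p = 0.00034, SE 0.07). In MKO the LPS value was 0.21 (adjusted p = 0.055, SE 0.07), and 0.28 and called without both libraries that stand apart. Its partner Slc7a5, a transporter of large neutral amino acids, passed at 3 h alone, at -0.49 (adjusted p = 0.024, SE 0.16), a call lost without WT 3 h replicate 2 (-0.34), MKO 3 h replicate 2 (-0.43) or MKO 3 h replicate 3 (-0.46), and with library size alone (-0.24). Among serine and glycine enzymes, Shmt2 of mitochondria was lower, at -0.44 (adjusted p = 0.011, SE 0.12) at 0 h, lost without WT 0 h replicate 1 (-0.38) or MKO 0 h replicate 2 (-0.34), and at -0.54 (adjusted p = 0.0022, SE 0.12) at 3 h. Phgdh, the first enzyme of serine synthesis, was lower at 3 h, at -0.52 (adjusted p = 0.0068, SE 0.14), with -0.28 (adjusted p = 0.13, SE 0.14) at 0 h. Its 3 h call was lost with library size alone (-0.27), and its 0 h value was called without both libraries that stand apart (-0.37). Psat1, the next enzyme of that path, was not called in any comparison, with 38.8 ± 1.499 CPM in WT 0 h, against 38.1 ± 5.87 in MKO 0 h and differences of -0.02 and -0.12 (SE 0.10 at both times).

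The ER chaperones and folding factors differed by little between the genotypes. Of 12 genes 5 were called lower in MKO at 0 h and 7 at 3 h, none higher, against 16.4% and 23% of all genes lower and 16.5% and 19.8% higher. The differences ran from -0.27 to 0.21 at 0 h and from -0.35 to 0.06 at 3 h. Hspa5 (BiP), the main ER chaperone, was at 1357, 1365 and 1250.0 CPM before LPS, then 1640.3, 1636 and 1626 after 3 h in WT, while MKO libraries gave 1132, 1104 and 1153 before LPS, then 1293, 1299.9 and 1357 after 3 h. It rose with LPS by 0.30 (adjusted p = 0.00013, SE 0.05) in WT and 0.22 (adjusted p = 0.0042, SE 0.05) in MKO, and was lower in MKO, at -0.23 (adjusted p = 0.0017, SE 0.05) and -0.31 (adjusted p = 0.00010, SE 0.05). Calr was at 2219, 2230.3 and 2215 CPM before LPS, then 2431, 2409 and 2317 after 3 h in WT, while MKO libraries gave 1852, 1875 and 1988 before LPS, then 1902, 1951 and 1982 after 3 h, and no MKO library reached a WT library. It was lower, at -0.22 (adjusted p = 0.0013, SE 0.04) and -0.29 (adjusted p = 9.4e-05, SE 0.04). Differences of this size lie near the 0.25 shift between the scalings at 3 h: with library size alone, Hspa5 was at -0.06 and Calr at -0.04 at 3 h, neither called. The LPS response of Hspa5 in WT was then 0.08 and not called, and that in MKO was not called with replicates 1 and 2 summed (0.23, adjusted p = 0.12).

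Hsp90b1 (GRP94), an ER chaperone that client Toll-like receptors need, was lower, at -0.15 (adjusted p = 0.016, SE 0.04) at 0 h and -0.14 (adjusted p = 0.018, SE 0.04) at 3 h. These calls were lost without WT 0 h replicate 1 or 2 (-0.14 and -0.13) at 0 h, and at 3 h without WT 3 h replicate 1 or 2 (-0.12 and -0.14) or MKO 3 h replicate 1 or 2 (-0.13 and -0.12). Hsp90b1 was at -0.03 at 0 h and not called with library size alone, and at 0.12 and called higher at 3 h. The disulfide isomerases Pdia4 and Pdia6 were lower, at -0.23 and -0.27 at 0 h and -0.19 and -0.21 at 3 h (SE 0.05 for each), and at 0.06 and 0.04 at 3 h with library size alone, neither called. That scaling also ended the 0 h call of Pdia4 (-0.11). The 3 h call of Pdia4 was lost without WT 3 h replicate 2 (-0.17) or MKO 3 h replicate 2 (-0.16). Manf, a secreted ER protein, was lower at 3 h, at -0.35 (adjusted p = 0.0073, SE 0.09), and Sdf2l1, a partner of Hspa5, at -0.31 (adjusted p = 0.022, SE 0.10). The Sdf2l1 call was lost without WT 3 h replicate 1 or 2 (-0.29 and -0.30) or MKO 3 h replicate 2 or 3 (-0.25 and -0.28). With library size alone Manf was at -0.10 and Sdf2l1 at -0.06 at 3 h, neither called. Manf, Sdf2l1 and Creld2 were called lower at 0 h without both libraries that stand apart, at -0.44, -0.46 and -0.35, as was Creld2 at 3 h (-0.16), and the interaction of Pdia6 was called at 0.14. LPS in MKO was called for Sdf2l1 with library size alone (-0.30). Dnajb9, a co-chaperone that Xbp1 is known to induce, rose with LPS in WT by 0.47 (adjusted p = 0.00027, SE 0.08), with 0.14 (adjusted p = 0.25, SE 0.08) in MKO. The interaction was -0.33 (adjusted p = 0.096, SE 0.11), and was called without WT 0 h replicate 3 and without both libraries that stand apart (-0.40, adjusted p = 0.0019). Without both, Dnajb9 was called higher in MKO at 0 h (0.29), as with library size alone (0.32). Canx, Dnajc3, Hyou1 and Creld2 were not called in any comparison, though library size alone called Canx, Dnajc3 and Hyou1 higher in MKO at 3 h (0.20, 0.31 and 0.27). Hyou1, a large chaperone of the ER, was at 192 ± 0.8101 CPM in WT 3 h, against 194 ± 3.71 in MKO 3 h, a difference of 0.02 (adjusted p = 0.81, SE 0.05).

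Genes of ER-associated degradation split. Herpud1, which organises the ubiquitin ligase complex in the ER membrane, was at 21.3, 23.7 and 19.1 CPM before LPS, then 42.6, 45.9 and 46.9 after 3 h in WT, while MKO libraries gave 15.02, 13.7 and 15.8 before LPS, then 28.1, 23.96 and 27.5 after 3 h. All 3 h libraries lay above the 0 h libraries of their genotype, and MKO lay below WT at both times. LPS raised it by 1.08 (adjusted p = 3.4e-07, SE 0.09) in WT and 0.84 (adjusted p = 1.7e-05, SE 0.10) in MKO, with an interaction of -0.24 (adjusted p = 0.38, SE 0.13). The genotype difference was -0.53 (adjusted p = 0.00088, SE 0.10) at 0 h and -0.77 (adjusted p = 1.2e-05, SE 0.09) at 3 h. The ligase itself, Syvn1, went the other way at 0 h, with 68.9, 73.3 and 76.6 CPM in WT and 82.01, 92.4 and 89.4 in MKO, a difference of 0.27 (adjusted p = 0.0087, SE 0.07). At 3 h its value was 0.12 (adjusted p = 0.18, SE 0.07), and it rose with LPS in WT by 0.33 (adjusted p = 0.0020, SE 0.07). Syvn1 was called higher in MKO at 3 h with library size alone (0.37), which put its LPS value in WT at 0.11, not called. Sel1l, the adaptor of Syvn1, was higher in MKO at 3 h by 0.24 (adjusted p = 0.0045, SE 0.06), with 196, 187 and 193 CPM in WT and 224, 227 and 229.8 in MKO. Edem1, a lectin that hands glycoproteins to the ligase, rose with LPS in WT by 0.26 (adjusted p = 0.0084, SE 0.07) and was not called between genotypes. Its LPS value was 0.03 and not called with library size alone, and it was then called higher in MKO at 0 h and 3 h (0.22 and 0.21). Without both libraries that stand apart, Edem1 and Sel1l were called higher in MKO at 0 h (0.23 and 0.21), and the interaction of Edem1 was called at -0.27. Sel1l was also called higher at 0 h with library size alone (0.23), and LPS in MKO was called for Syvn1 without both (0.19).

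**Figure D4:**
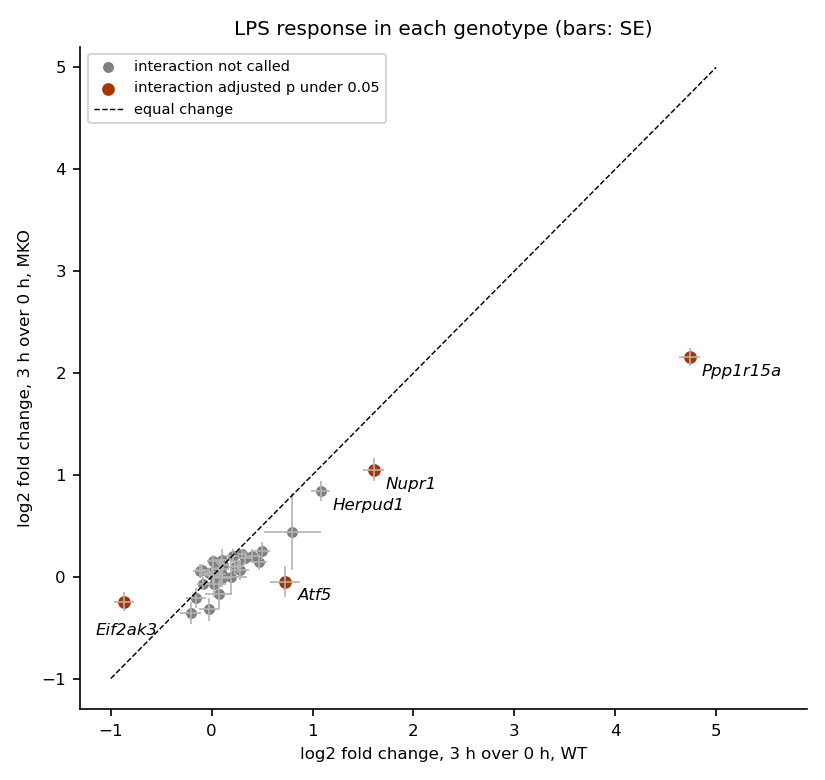
Log2 fold change of 3 h over 0 h in WT (horizontal) and in MKO (vertical) for the 37 genes, with SE as bars. Points called for the interaction are dark, and Ppp1r15a lies far below the line of equal change at 4.74 and 2.16, while Eif2ak3 lies above it at -0.86 and -0.25.

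Set beside the promoter matches, all 5 genes with the C/EBP and ATF4 core were called lower in MKO at both times. Their values were -1.68 to -0.53 at 0 h and -2.03 to -0.77 at 3 h, and Trib3 is not among the stretches shown. Of the 37 genes 20 were called lower at both times, against 12.6% of all genes. Mthfd2, Slc3a2, Shmt2, Cebpg and Atf4 were among them without a match to this core. Of the 8 genes with an ER stress element 4 were called lower at 0 h, Calr, Hsp90b1, Hspa5 and Pdia6, and 1 higher, Syvn1. Of all genes 16.4% were called lower and 16.5% higher. At 3 h the same 4 were called lower and none higher, with values of -0.31 to 0.12, against 23% and 19.8% of all genes. Canx and Syvn1, whose elements are printed above, were at -0.05 and 0.12 at 3 h, against -0.31 for Hspa5 and -0.29 for Calr. With few genes a motif this is a description, and no difference between the motif groups was tested.

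Other genes of the same pathways, taken from lists written by role, gave the wider picture, to be read against the 16.5% of all tested genes called higher and 16.4% lower at 0 h, and 19.8% and 23% at 3 h. Of 14 tested genes of amino acid transport and synthesis known as targets of Atf4, 2 were called higher and 6 lower in MKO at 0 h, and 1 higher and 7 lower at 3 h, with medians of -0.20 and -0.38. Slc7a11, the cystine transporter, was at 9.59 ± 2.43 CPM in WT 0 h, 115 ± 5.82 in WT 3 h, 14.7 ± 4.06 in MKO 0 h and 49.8 ± 1.53 in MKO 3 h. Its LPS response was 3.58 (adjusted p = 5.7e-10, SE 0.18) in WT and 1.77 (adjusted p = 2.2e-06, SE 0.17) in MKO, with an interaction of -1.81 (adjusted p = 0.00023, SE 0.24). Slc38a2, a glutamine transporter, had an interaction of -0.49 (adjusted p = 0.0094, SE 0.10). Of 21 cytosolic aminoacyl-tRNA synthetases, which charge tRNA, 1 was called higher and 10 lower at each time, with medians of -0.20 and -0.17. Aars was lower, at -0.36 (adjusted p = 0.00011, SE 0.05) at 0 h and -0.46 (adjusted p = 7.0e-06, SE 0.05) at 3 h, and Wars was higher by 0.66 (adjusted p = 1.8e-05, SE 0.08) at 0 h.

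Among regulators of eIF2, 1 of 18 was called higher and 3 lower in MKO at 0 h, and 1 and 6 at 3 h, and the 0 h share called lower lay near the 16.4% of all genes. Impact, an inhibitor of GCN2, was higher in MKO by 0.37 (adjusted p = 0.00012, SE 0.05) at 0 h and 0.72 (adjusted p = 1.5e-07, SE 0.05) at 3 h. Nck1, an adaptor that binds the eIF2 phosphatase, rose with LPS by 1.60 (adjusted p = 2.2e-09, SE 0.09) in WT and 0.67 (adjusted p = 7.1e-05, SE 0.09) in MKO, with an interaction of -0.93 (adjusted p = 0.00025, SE 0.13). A list of 19 further stress-induced genes behaved otherwise at 0 h, where 8 were called higher and 1 lower in MKO, against 7 and 8 at 3 h. For this list 8 interactions were called below 0 and 1 above, against 4.41% and 2.39% of all genes. The median was -0.62, against -0.02 for all genes. Gadd45a, a growth arrest gene, was at 21.1 ± 2.34 CPM in WT 0 h, 88.9 ± 3.44 in WT 3 h, 20.4 ± 0.517 in MKO 0 h and 34.7 ± 1.83 in MKO 3 h, with an interaction of -1.31 (adjusted p = 3.7e-06, SE 0.11). Atf3, a stress factor that restrains inflammatory genes, had an interaction of -0.80 (adjusted p = 7.7e-05, SE 0.09), and Sqstm1, an autophagy receptor, of -0.66 (adjusted p = 1.7e-05, SE 0.07).

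In the ER lists the differences were smaller and mixed. Of 30 further chaperones and folding enzymes, 2 were called higher and 6 lower in MKO at 0 h, and 5 and 10 at 3 h, with medians of -0.05 and -0.08, near the 16.4% lower at 0 h and the 19.8% higher at 3 h of all genes. P4hb, a disulfide isomerase, was lower, at -0.40 (adjusted p = 1.3e-05, SE 0.04) at 0 h, while Rcn1, a calcium-binding protein of the ER, was higher by 1.30 (adjusted p = 1.5e-06, SE 0.12). Of 24 further degradation genes, 5 were called higher and 4 lower at 0 h, and 7 and 5 at 3 h, near the 16.5% and 16.4% of all genes at 0 h. Vcp, the ATPase that pulls clients from the membrane, was higher by 0.26 (adjusted p = 0.00031, SE 0.04) at 0 h and 0.31 (adjusted p = 5.6e-05, SE 0.04) at 3 h, and its cofactor Ubxn4 by 0.53 (adjusted p = 5.0e-06, SE 0.05) and 0.39 (adjusted p = 5.2e-05, SE 0.05). Of 31 genes of the translocon, signal peptidase and glycosylation, 1 was called higher and 8 lower at 0 h, and 0 and 11 at 3 h. Of 17 regulators of the Atf6, Ire1 and Creb3 branches, 2 were called higher and 1 lower at 0 h, and 4 and 5 at 3 h, among them Wfs1, an ER membrane protein that restrains Atf6, higher by 1.33 (adjusted p = 5.4e-07, SE 0.11) at 3 h.

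**Figure D5:**
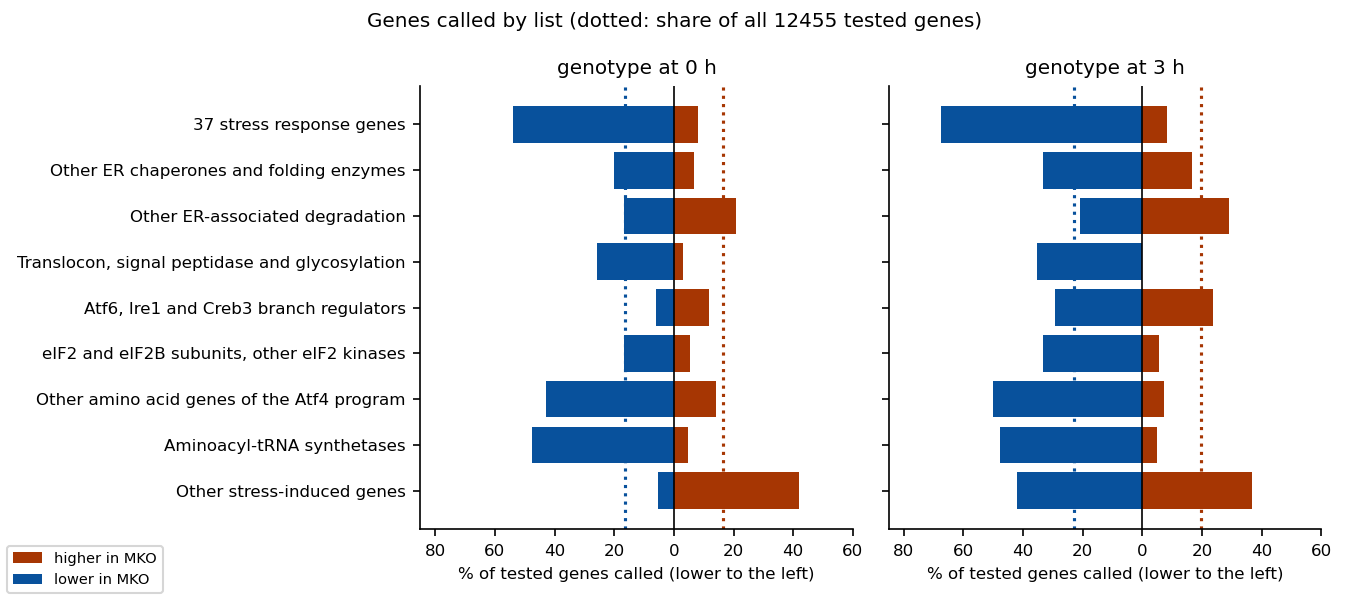
Percent of tested genes called in each list, lower in MKO to the left and higher to the right, at 0 h and 3 h, with the share of all tested genes as dotted lines. The bars for the 37 genes reach 20 of 37 lower at 0 h and 25 of 37 at 3 h, beyond the dotted lines at 16.4% and 23%, while the list of other stress-induced genes has 8 of 19 called higher at 0 h.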

How the data were processed

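RNA of mouse peritoneal macrophages was lysed in TRIzol and made into standard Illumina libraries, per the labels' protocols. The submitters' processing notes name fastp and mm10. The aligner, counter, annotation and strand setting were not given in the sources used here, so overlapping genes on opposite strands cannot be told apart. The authors deposited 1 table with unnormalized read counts per gene and library, and TPM values (transcript abundance normalized for gene length and library) beside them, per the file headers. Counts were used in every test and TPM to compare levels between genes. Titles gave each sample's genotype and hour of LPS.

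The 37 genes, the pathway lists and the tests were chosen with earlier results of these data known. Counts were fitted with the quasi-likelihood test of edgeR 4.0.16 under R 4.3.3 (TMM factors, filterByExpr) with a mean per group over all 12 libraries. Of 19195 genes with a count 12455 were tested. Comparisons were the LPS response of each genotype, the genotype difference at each time, and their interaction. The SE was taken as the absolute log2 fold change over the square root of F. In simulated data of these genes 34%, 86%, 100% and 100% of 50 genes changed 1.25, 1.5, 2 and 4-fold were recovered for LPS in WT, and 4%, 54%, 90% and 100% for the interaction.

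Values of every library are given by rule for genes called with a log2 fold change of at least 1 in any comparison and for the 3 of the 37 with the smallest p in each (Ppp1r15a, Nupr1, Herpud1, Mthfd2, Trib3, Atf5, Chac1 and Eif2ak3). Those given for others, and the 9 promoters shown, were chosen after their values were seen. Pathway lists name at most the 3 smallest p per comparison, with other comparisons of those genes beside them. Promoter sequences are from RefSeq (GRCm38.p6). Alternatives were RLE factors, library size only, no filter, a mean of at least 5 CPM, DESeq2 1.42.0, a replicate block, only the groups compared, each library left out, both 0 h libraries that stand apart left out, and replicates 1 and 2 summed.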

Additional observations from a re-analysis of the deposited data

Results flagged for a closer look

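In 4 of the 37 genes, against 6.8% of all tested genes, the LPS response differed between the genotypes. This was judged by the interaction term of edgeR's test, which compares the responses directly. Ppp1r15a had the largest difference, -2.58, since its LPS response was 4.74 in WT and 2.16 in MKO, with all 3 libraries of each 3 h group above all 0 h libraries of its genotype. Atf5 was at -0.78, from 0.73 in WT and -0.05 in MKO. Nupr1 was at -0.55, from 1.60 and 1.05. Eif2ak3 was at 0.62, from -0.86 and -0.25. The adjusted p was 1.9e-08 for Ppp1r15a, 0.012 for Eif2ak3, 0.043 for Atf5 and 0.043 for Nupr1. The Atf5 and Nupr1 calls were each lost in 10 of the 12 fits that left out a library. With replicates 1 and 2 summed, the calls of Eif2ak3 (0.65, adjusted p = 0.083), Atf5 and Nupr1 were lost, and that of Ppp1r15a held.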

How the results depend on the processing

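The number of the 37 genes called was within 1.5 times that of the main analysis except in these cases. LPS in MKO called 11 without both 0 h libraries that stand apart and 3 with replicates 1 and 2 summed, against 6. Genotype at 0 h called 12 with replicates 1 and 2 summed, against 23. The interaction, called for 4, was called for 2 with library size only, 2 with the replicate block, 8 without both libraries that stand apart and 1 with replicates summed. Leaving out each library in turn gave 11 to 15 calls for LPS in WT, 4 to 8 for LPS in MKO, 20 to 29 for genotype at 0 h, 23 to 29 for genotype at 3 h and 2 to 4 for the interaction. Summing and leaving out leave fewer samples, and the cause of these differences was not tested.

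Signs changed with library size only, by the shift that this scaling puts on all genes. Of the genes called under either scaling, for LPS in WT Atf6 was then at -0.017, Hsp90b1 at -0.15, Pdia4 at -0.22, Calr at -0.12, Canx at -0.13 and Sel1l at -0.21. For genotype at 3 h Cebpg was at 0.029, Hsp90b1 at 0.12, Pdia4 at 0.062, Pdia6 at 0.038, Canx at 0.20 and Edem1 at 0.21. Signs also changed for genes called under neither scaling, 10 for LPS in WT (Creld2, Eif2ak4, Ern1, Hyou1, Manf, Mthfd2, Phgdh, Psat1, Shmt2 and Slc7a5), 10 for LPS in MKO, 3 for genotype at each time and 9 for the interaction. Over 18 same-numbered pairs of replicates the correlation of deviations from the group mean was -0.31 to 0.08, none over 0.1, and 7 of 18 correlated best with their own number. With the third 0 h libraries apart in opposite directions, this check cannot show whether a replicate number marks a shared source, which the labels do not state. The replicate block called 13 and 4 of the 37 for LPS in WT and in MKO, 23 and 28 for genotype at 0 h and at 3 h, and 2 for the interaction. DESeq2 called 14 and 7, 25 and 28, and 4. A fit of only the groups compared was not made for the interaction, which needs all 4. In the simulation the smallest fold was mostly missed, so genes not called may still differ by small folds.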

Other observations

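Stress genes outside the 37 moved in other ways. Tnfrsf10b, a death receptor that CHOP is known to induce, was at 1.98 ± 0.498 CPM in WT 0 h, 2.58 ± 0.451 in WT 3 h, 7.402 ± 0.531 in MKO 0 h and 12.4 ± 1.54 in MKO 3 h. It was higher in MKO by 1.90 (adjusted p = 3.4e-06, SE 0.18) at 0 h and 2.26 (adjusted p = 1.4e-07, SE 0.17) at 3 h, while Ddit3, which encodes CHOP, was called lower at both times. Ndrg1, a stress-responsive gene, was higher by 0.86 (adjusted p = 2.2e-06, SE 0.08) at 0 h. Gdf15, a secreted stress cytokine, was at 6.91 ± 0.406 CPM in WT 0 h, 55.8 ± 4.28 in WT 3 h, 9.38 ± 1.22 in MKO 0 h and 36.4 ± 3.57 in MKO 3 h, and rose with LPS in both genotypes, by 3.01 (adjusted p = 1.6e-11, SE 0.11) and 1.96 (adjusted p = 3.4e-09, SE 0.11).

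The 0 h libraries that stand apart differed from their mates in Manf, Creld2 and Sdf2l1 too, ER genes chosen after their values were seen. Manf measured 160.03, 168 and 136 CPM in WT 0 h, against 119, 123 and 151 CPM in MKO 0 h, Creld2 at 57.9, 54.7 and 46.97 and 43.4, 44.4 and 54.3, and Sdf2l1 at 123, 127 and 104 and 90.2, 90.4 and 115. In each the third library of WT was the lowest of its group and the third library of MKO the highest. Without both libraries Manf, Creld2 and Sdf2l1 were called lower in MKO at 0 h, at -0.44, -0.35 and -0.46. Malat1, a nuclear RNA chosen after its values were seen, measured 31.7, 29.9 and 164 CPM in WT 0 h, against 201, 121 and 26.3 CPM in MKO 0 h.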
